A study of Homo sapiens with 18 samples.

Results

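Cells of the human osteosarcoma line U2OS that carry introduced wild-type DNMT3A (WT) were compared with U2OS cells that carry the empty vector MigR1 (EV), both sampled after 24 h with 10 µM cytarabine. The comparison is between 6 of the 18 libraries of the series, 3 of each line, chosen by their labels alone, and it covers every gene of the deposited table. All 18 libraries entered the fit and set the spread that the tests used. The same lines without the drug gave 6 further libraries, and another line with mutant DNMT3A gave the remaining 6. The sample labels name that mutation R882H and the series text R882C, and untreated cells are called untreated in the labels and vehicle control in the series text. The replicates were plated as biological triplicates. Whether a line is 1 clone or a pool, and which species and transcript form of DNMT3A was introduced, are not given in the sources used here. Lines that were made separately can differ by more than the introduced gene, and with 1 line of each kind these cannot be told apart.

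DNMT3A is a de novo DNA methyltransferase, which adds methyl groups to cytosines in CpG dinucleotides, and methylation of promoters rich in CpG goes with silencing of the gene. Cytarabine is a cytidine analogue that cells phosphorylate and build into DNA, where it slows the replication fork and sets off the replication checkpoint and the p53 response. Cytidine deaminase (CDA) and the triphosphate hydrolase SAMHD1 remove the drug or its active form, and deoxycytidine kinase (DCK) makes the first phosphorylated product.

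The 6 treated libraries held 15391484 to 21850378 estimated counts. Levels are given in CPM, the count scaled to a library of 1000000. Differences are log2 fold changes of WT against EV with their standard error (SE), from 1 edgeR quasi-likelihood fit over all 18 libraries, and a gene was called where the Benjamini-Hochberg adjusted p over all 18226 tested genes was under 0.05. The treated EV libraries varied more among themselves than the treated WT libraries, with a biological coefficient of variation of 0.133 against 0.0487. Treated EV replicate 2 had 5.18% of its counts on mitochondrially encoded genes, against 3.79% and 3.87% in the other treated EV libraries and 3.08% to 3.42% in treated WT. Of 14 mesenchymal markers 13 were tested, and they took 0.351% to 0.367% of the counts in every treated library. Single markers did differ, with 5 of the 13 called lower in treated WT, COL1A1 and THY1 among them, and 2 higher. Over all tested genes 9.12% were called lower and 7.41% higher. Markers of other cell types took at most 0.0219% in any list. The epithelial list summed to 0.00331% to 0.00356% in treated EV and 0.00183% to 0.00270% in treated WT, with KRT19 and RAB25 at 3 counts or fewer in each library.

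DNMT3A itself (chromosome 2, 25227855 to 25342591, minus strand) was at 47.1, 49.6 and 45.5 CPM in treated EV replicates 1 to 3 and at 182, 166 and 181 CPM in treated WT. All WT libraries lay above all EV libraries, by a log2 fold change of 1.90 (SE 0.190, edgeR adjusted p 1.2e-06), and the call held in all 20 alternatives. The table does not separate endogenous from introduced transcripts, so these values check the labels and no more. Without the drug the difference was 2.31, and the mutant line exceeded treated EV by 3.47. Total DNMT3A in treated mutant cells had a mean of 524 CPM, and in untreated EV it was at 26.9, 27.5 and 26.2 CPM. In these bulk libraries fewer cells that express a gene and less RNA per cell cannot be told apart, here and in what follows. Reads of many named genes, KRT8, TYMS, ICAM1, COL1A2, CTGF, C1S, BGN and GFAP among them, may include those of overlapping genes. The handling of strand in counting is not given in the sources used here, and some overlaps, as of C1S with EMG1, are on the same strand.

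Across all genes 3013 were called in WT against EV under cytarabine, 16.5% of those tested, with 1351 higher (7.41%) and 1662 lower (9.12%). In 2963 of the 3013 the 3 WT and the 3 EV libraries did not overlap, against 37.1% of all tested genes. Most differences were small: the median log2 fold change was 0.40 among the genes called higher and -0.57 among those called lower. A difference of at least 1 on the log2 scale was called for 598 genes (3.28%), of which 156 were higher (0.856%) and 442 lower (2.43%). Without treated WT replicate 2 the call count fell to 1776, with 743 higher and 1033 lower. At an unadjusted p under 0.05 there were 5335 genes (29.3%).

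**Figure D1:**
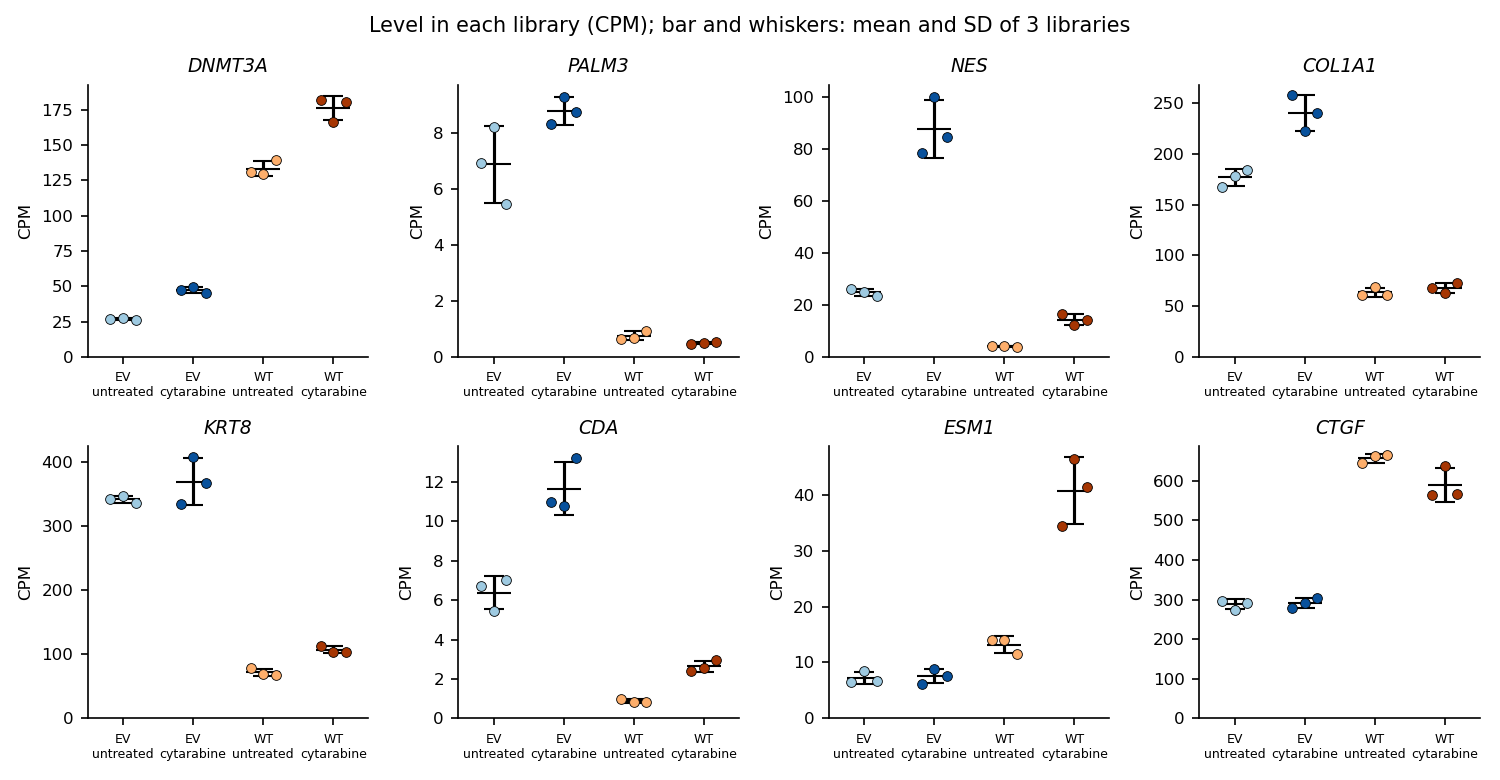
Level in CPM (vertical axes from 0, 1 panel a gene) in every EV and WT library, untreated and under cytarabine; points are libraries, the bar and whiskers the mean and SD of 3. The treated WT libraries lie above the treated EV libraries for DNMT3A, ESM1 and CTGF and below them for PALM3, NES, COL1A1, KRT8 and CDA, without overlap.

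Among genes above a mean log2 CPM of 1, the 12 with the deepest fall in WT were ranked first. PALM3, a paralemmin of the plasma membrane (chromosome 19, 14053365 to 14059160, minus strand), was at 8.31, 9.3 and 8.77 CPM in EV and 0.464, 0.486 and 0.532 CPM in WT, a log2 fold change of -4.14 (SE 0.221, edgeR adjusted p 3.2e-10). ICAM1, the adhesion receptor for leukocyte integrins (chromosome 19, 10270835 to 10286616, plus strand), was at 9.1, 10.2 and 8.85 CPM in EV and 1.02, 1.51 and 1.06 CPM in WT. NES, the intermediate filament protein nestin (chromosome 1, 156668763 to 156677398, minus strand), was at 78.3, 99.8 and 84.6 CPM in EV and 16.4, 12.2 and 14 CPM in WT. In each of these 3 every WT library lay well below every EV library, and the fall was -2.97 for ICAM1 and -2.62 for NES. SCN2B, a sodium channel subunit, GALNT5, which starts mucin-type glycans, and MAMDC2 had values of -2.95, -2.89 and -2.88. IL2RB, a subunit of the interleukin 2 receptor, ASS1, the enzyme of arginine synthesis, and G0S2, an inhibitor of lipolysis, had -2.51, -2.40 and -2.39. POTEC, of a family of near-identical genes whose reads could be split, had -2.71, and the long noncoding RNA LINC01694 had -2.69. AP003396.5, a gene that overlaps THY1 on the opposite strand, had -2.56 (edgeR adjusted p 0.0243). Its call was lost without EV replicate 1 (-1.85), without WT replicate 1 (-2.21), without WT replicate 2 (-2.24) and in DESeq2 (-2.57). The other 11 kept their call in every alternative in which they were tested. All of them but AP003396.5 were called lower without the drug as well, from -1.58 for MAMDC2 to -4.11 for G0S2.

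The 12 genes with the largest rise, DNMT3A among them, had histone, vascular and matrix members. HIST1H4H, a histone H4 gene (chromosome 6, 26277609 to 26285639, minus strand), was at 2.88, 2.5 and 3.46 CPM in EV and 17.3, 18.3 and 15.9 CPM in WT, a log2 fold change of 2.52 (SE 0.164, edgeR adjusted p 4.4e-09). ESM1, a proteoglycan secreted by activated endothelium (chromosome 5, 54977864 to 55022672, minus strand), was at 6.21, 8.74 and 7.61 CPM in EV and 34.4, 46.4 and 41.3 CPM in WT, a rise of 2.44 (SE 0.197). PDGFB, a growth factor chain, was at 2.4, 3.5 and 2.18 CPM in EV and 12.4, 8.21 and 12.8 CPM in WT (2.07). For these 3 genes the lowest WT library exceeded the highest EV library by more than 2-fold. GFAP, the glial filament protein, and COL1A2, the second chain of type I collagen, rose from low levels by 2.39 and 1.91. The ephrin receptor EPHB1 rose by 1.71, the phospholipase PLCB4 by 2.06, the polarity adaptor INSC by 1.66 and the potassium channel subunit KCNB2 by 1.65. CCL4, a chemokine with a near-identical paralog, rose by 1.73, and the linker histone gene HIST1H1C by 1.72. INSC was the one of these 12, DNMT3A included, that was not called untreated (0.55, edgeR adjusted p 0.401).

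Since DNMT3A acts on CpG, the 250 bases upstream of the start in RefSeq are shown for the genes at the top of both rankings that RefSeq's promoter table (GRCh38.p14) holds, 4 lower and 2 higher, with each CpG in capitals. GALNT5, which ranks among the 4 lowest, has no entry there. RefSeq's start can differ from the bounds of a gene in the deposited table, as it does here for all but MAMDC2. The ICAM1 and ESM1 stretches lie inside those bounds, the SCN2B and HIST1H4H stretches reach into them, and the PALM3 stretch does not adjoin them. DNA methylation was not measured in these libraries, so the sequences show where CpG lies and nothing of its state.

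PALM3, chr19:14062077-14062326, minus strand: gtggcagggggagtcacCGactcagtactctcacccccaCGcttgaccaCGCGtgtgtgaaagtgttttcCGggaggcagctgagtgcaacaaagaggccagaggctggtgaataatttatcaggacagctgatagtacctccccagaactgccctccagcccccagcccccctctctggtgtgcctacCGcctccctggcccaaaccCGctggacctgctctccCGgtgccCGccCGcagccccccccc
ICAM1, chr19:10270870-10271119, plus strand: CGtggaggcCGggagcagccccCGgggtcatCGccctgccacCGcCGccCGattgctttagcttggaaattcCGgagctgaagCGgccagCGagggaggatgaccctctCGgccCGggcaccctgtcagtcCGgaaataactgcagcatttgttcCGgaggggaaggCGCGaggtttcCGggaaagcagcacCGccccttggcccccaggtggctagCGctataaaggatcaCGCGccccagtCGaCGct
SCN2B, chr11:118176640-118176889, minus strand: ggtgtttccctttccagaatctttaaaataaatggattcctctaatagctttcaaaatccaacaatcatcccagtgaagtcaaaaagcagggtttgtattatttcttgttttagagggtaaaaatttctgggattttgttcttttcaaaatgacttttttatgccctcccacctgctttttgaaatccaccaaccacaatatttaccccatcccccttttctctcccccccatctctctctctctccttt
MAMDC2, chr9:70043331-70043580, plus strand: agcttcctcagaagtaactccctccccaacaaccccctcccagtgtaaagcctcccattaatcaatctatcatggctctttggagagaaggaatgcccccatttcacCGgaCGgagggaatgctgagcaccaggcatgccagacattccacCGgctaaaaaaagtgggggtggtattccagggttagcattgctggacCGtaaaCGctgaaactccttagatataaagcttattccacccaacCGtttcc
HIST1H4H, chr6:26285535-26285784, minus strand: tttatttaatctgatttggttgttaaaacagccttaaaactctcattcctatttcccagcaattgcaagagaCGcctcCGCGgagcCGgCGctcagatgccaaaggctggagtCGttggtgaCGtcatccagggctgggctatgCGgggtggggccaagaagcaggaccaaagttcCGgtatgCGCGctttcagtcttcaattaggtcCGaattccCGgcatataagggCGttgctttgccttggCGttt
ESM1, chr5:54985594-54985843, minus strand: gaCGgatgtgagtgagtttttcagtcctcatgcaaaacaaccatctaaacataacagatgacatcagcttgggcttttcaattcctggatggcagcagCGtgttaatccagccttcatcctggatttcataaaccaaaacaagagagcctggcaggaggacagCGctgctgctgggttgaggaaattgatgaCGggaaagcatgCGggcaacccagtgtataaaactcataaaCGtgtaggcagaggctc

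The dinucleotide CG, which reads the same on both strands, occurs 10 times in the PALM3 stretch, 23 in ICAM1, 0 in SCN2B, 6 in MAMDC2, 15 in HIST1H4H and 6 in ESM1. Over all 27305 promoters of the table the median was 11, with quartiles of 3 and 23, and 6.39% held none. The genes that fell deepest therefore ranged from a promoter at the upper quartile of CpG, ICAM1, to one with none, SCN2B. A count over all called genes was void, because only 79.8% of the tested protein-coding genes, and 68.2% of those called at a log2 fold change of at least 1, had an entry.

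Among the other enzymes of DNA methylation, the list of 17 writers, readers and erasers had 16 tested members, of which 3 were called higher and 2 lower. With so few genes that count is no result about the list. For this and every later list, the shares over all tested genes were 7.41% higher and 9.12% lower. DNMT3B, the second de novo methyltransferase, was at 46.8, 45.1 and 44.2 CPM in EV and 33.3, 31.1 and 29.7 CPM in WT, lower in every WT library (-0.53, SE 0.0853, edgeR adjusted p 0.000248). In the mutant line DNMT3B was 0.30 against the same EV libraries. IDH2, a source of the cofactor that TET enzymes need, was lower by 0.49, and HELLS, a chromatin remodeller that aids DNMT enzymes, was higher by 0.37. TET3, which oxidises methylcytosine, was higher by 0.48, a call lost without EV replicate 1 (0.43), EV replicate 3 (0.46), WT replicate 2 (0.44) or WT replicate 3 (0.47). DNMT1, the maintenance enzyme, had 0.09 and was not called.

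Among genes that handle cytarabine, the enzyme that inactivates the drug was lower in WT. CDA, which deaminates the drug (chromosome 1, 20588948 to 20618909, plus strand), was at 11, 10.8 and 13.2 CPM in EV and 2.41, 2.54 and 2.95 CPM in WT, a log2 fold change of -2.15 (SE 0.164, edgeR adjusted p 3.4e-08). Every WT library lay far below the lowest EV library, and the difference was there without the drug (-2.84). SAMHD1, which hydrolyses the active triphosphate, was lower by 0.30 (SE 0.0691), at 111, 121 and 115 CPM in EV and 96.9, 89.8 and 94.6 CPM in WT. DCK had 0.10 and the nucleoside carrier SLC29A1 0.09, neither called. RRM2, a subunit of ribonucleotide reductase, rose by 0.31, and DTYMK, which phosphorylates thymidylate, by 0.41. Of the 20 tested genes on the list 3 were called higher and 2 lower, beside 7.41% and 9.12% of all tested genes. With so few genes that count is no result about the list. PARP1, which senses DNA breaks, had -0.02 and the imprinted noncoding RNA H19 -0.26, neither called.

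The called genes of the histone clusters were all higher. Of 36 listed genes of the replication-dependent clusters 16 passed the low-count filter, 11 of them were called higher and none lower, with a median log2 fold change of 0.99 against -0.0033 over all tested genes. HIST1H1C was at 13.7, 11.7 and 11.3 CPM in EV and 37.1, 38.6 and 45.7 CPM in WT, HIST2H2BE at 15.4, 15.6 and 19.7 and 37.2, 38 and 39.8 CPM. Both groups were apart for each gene, and HIST2H2BE (1.18) and HIST1H2BD (0.97) differed untreated too (1.04 and 1.21). Untreated, 10 of the 16 were called higher and none lower, with a median of 1.23. HIST1H2AG rose by 0.82 under the drug and had 0.08 without it, and the test of that change gave an edgeR adjusted p of 0.0552. H1F0, the linker histone of cells that leave the cycle (chromosome 22, 37805093 to 37807437, plus strand), went the other way, with 934, 887 and 965 CPM in EV and 457, 390.2 and 510.4 CPM in WT (-1.04). Histone paralogs are near-identical, so reads could be split between them, and whether the library kit kept RNAs without a poly(A) tail is not given in the sources used here.

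Of 43 genes of G2 and mitosis, 18 were called lower and none higher, with a median of -0.21. NEK2, a centrosome kinase, was at 64.5, 58.6 and 63 CPM in EV and 39.6, 36 and 44.3 CPM in WT (-0.63, SE 0.0691, edgeR adjusted p 3.2e-06). The kinesin KIF20A (-0.55), the spindle protein DLGAP5 (-0.51), the checkpoint kinase TTK (-0.53) and the kinesin KIF2C (-0.41) were also lower, each without overlap. Cyclin B1, CCNB1, had -0.20 and missed the threshold (edgeR adjusted p 0.0576), which it passed without EV replicate 2 (-0.23), in DESeq2 (-0.19) and under a filter at a mean count of 50 (-0.22). Untreated, 8 of the 43 were called lower.

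Of 45 replication genes and E2F targets, 16 were called higher and 1 lower under the drug, with a median of 0.15. TYMS, thymidylate synthase, was at 275, 270.4 and 294 CPM in EV and 466, 478 and 469 CPM in WT (0.75, SE 0.0907, edgeR adjusted p 1.2e-05). CCNE2, cyclin E2, was at 10.5, 9.93 and 11.1 CPM in EV and 23, 20.5 and 20.5 CPM in WT (1.02). Both genes were higher in all 3 WT libraries, and so were GINS4 (0.35) of the replicative helicase and POLA2 (0.36) of DNA polymerase alpha. RBL1, the pocket protein p107, was the 1 member lower (-0.38). Without WT replicate 2 the higher calls were 9 and without WT replicate 1 they were 10. Untreated, 1 of the 45 was called higher and 5 lower, and for CCNE2 the change from 0.09 untreated had an edgeR adjusted p of 0.0563.

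Of 33 tested p53 targets, 10 were called higher and none lower, with a median of 0.17, and untreated 2 were called higher and 5 lower. CDKN1A, the cyclin-dependent kinase inhibitor p21, was at 798, 769 and 801 CPM in EV and 1014, 1031 and 1062 CPM in WT (0.39, SE 0.0598, edgeR adjusted p 0.00015). GDF15, a secreted stress cytokine (chromosome 19, 18374731 to 18389177, plus strand), was at 301, 248 and 289 CPM in EV and 459, 418 and 494 CPM in WT (0.71). The WT libraries were above the EV libraries for both, and for CD82 (0.47), TP53I3 (0.44), ZMAT3 (0.44) and AIFM2 (0.47). MDM2, the ligase that degrades p53, had 0.35 (edgeR adjusted p 0.0424). Its call was lost in 11 of the 12 fits without a library, at 0.21 without EV replicate 1, 0.32 to 0.39 without EV replicate 3 or any 1 WT replicate, and 0.34 to 0.35 without any 1 untreated library.

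Genes of the integrated stress response, the ATF4 program for amino acid supply, gave 9 higher and 2 lower of 25, with a median of 0.21 and no higher call untreated. PSPH, the last enzyme of serine synthesis, was at 41.6, 44.3 and 44.5 CPM in EV and 79, 76.7 and 74.9 CPM in WT (0.82, SE 0.0996, edgeR adjusted p 1.2e-05). SLC7A11, the cystine carrier, was at 26.6, 37.6 and 34.6 CPM in EV and 58.3, 61.2 and 52.3 CPM in WT (0.80). CHAC1, which breaks down glutathione, rose by 0.89 and the factor ATF5 by 0.38, again with no overlap of the groups. ALDH1L2, a mitochondrial folate enzyme, was lower, by 1.25, and was lower untreated too (-1.49). The lower count was 1 without EV replicate 1 or 3 or WT replicate 2.

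**Figure D2:**
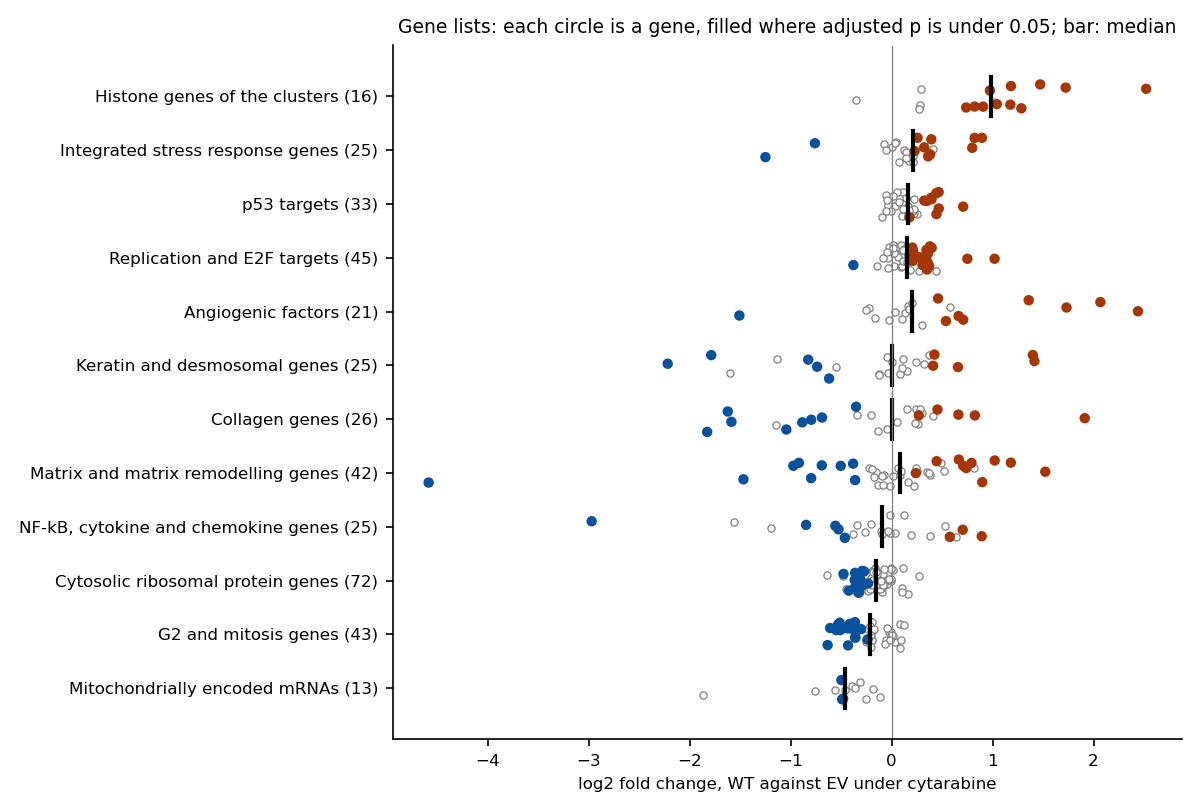
Log2 fold change of WT against EV under cytarabine (horizontal axis) for the tested genes of 12 lists (number in brackets); filled circles passed the threshold, open circles did not, and the bar is the list's median. Histone genes lie mostly to the right, G2 and mitosis genes mostly to the left, and keratin, collagen and matrix genes are spread to both sides.

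Genes of the translation machinery and of mitochondria gave shifts whose counts varied with single libraries. Of 72 cytosolic ribosomal protein genes 16 were called lower and none higher, with a median of -0.155. RPL13A was at 630.1, 596 and 552 CPM in EV and 413, 414 and 451 CPM in WT (-0.48, SE 0.0880, edgeR adjusted p 0.000911), and RPL3 (-0.33), RPL26 (-0.36) and RPL8 (-0.37) were also lower. The count was 8 without EV replicate 1, 9 without WT replicate 1 or 3 and 6 without WT replicate 2, and it was 0 untreated. These genes took 4.42% to 4.82% of the counts in treated EV and 4.02% to 4.14% in treated WT, and processed pseudogenes, many of them copies of such genes, 1.70% to 1.97% and 1.55% to 1.63%. Of 13 mitochondrially encoded mRNAs MT-CO1 (-0.50), MT-ND4 (-0.48) and MT-ATP6 (-0.49) were called lower. None of the 3 was called without EV replicate 2 (-0.27, -0.30 and -0.36), the library with the high mitochondrial share, without any 1 treated WT library, or in DESeq2. The 13 mRNAs had a median of -0.463 with no value above 0, and the untreated median was -0.0681. In the fit restricted to the groups compared 8 were called lower, and with no low-count filter 1.

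Collagen genes differed in both directions. COL1A1, the main chain of type I collagen (chromosome 17, 50183289 to 50201633, minus strand), was at 258, 223 and 240.3 CPM in EV and 67.9, 62.6 and 72.9 CPM in WT (-1.83, SE 0.104, edgeR adjusted p 6.7e-10). COL16A1 (-1.62), COL8A1 (-1.59), COL9A2 (-0.88) and COL11A1 (-0.69) were lower as well, while COL1A2, the partner chain, was at 2.15, 1.75 and 2.39 CPM in EV and 7.98, 8.11 and 7.83 CPM in WT. The chains of type I collagen thus differed in opposite directions, with no overlap in either. Of 26 collagen genes 8 were called lower and 5 higher, and 3 higher without EV replicate 2 or any 1 treated WT replicate. Untreated, 7 were called lower and 4 higher, and 10 of the treated calls were the same there.

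Matrix genes beyond the collagens gave 8 higher and 6 lower of 42 untreated, and 10 higher and 9 lower under cytarabine. BGN, the proteoglycan biglycan (chromosome X, 153494939 to 153509555, plus strand), was at 9.98, 8.3 and 6.93 CPM in EV and 0.51, 0.162 and 0.338 CPM in WT, where the libraries held 11, 3 and 7 counts, so that its fall of 4.59 (SE 0.393) is imprecise. MFAP5 (-1.47), the metalloproteinase inhibitor TIMP3 (-0.92) and the gelatinase MMP2 (-0.69) were also lower. CTGF, a matricellular target of YAP (chromosome 6, 131948176 to 131951374, minus strand), was at 278, 292 and 304 CPM in EV and 563, 639 and 568 CPM in WT (1.02, SE 0.0813, edgeR adjusted p 5.7e-08), higher in every WT library. Of the 25 Hippo-YAP targets 6 were called higher, CRIM1 (0.42) among them, and 3 lower, among them F3, tissue factor (-0.93). That higher count was 3 without EV replicate 3 and 2 without WT replicate 2. Of the surface and metabolic genes, THY1, a mesenchymal surface protein, fell by 1.27 and DHRS2, a mitochondrial reductase, fell by 1.40, while MYH16, a transcribed myosin pseudogene, rose by 1.44.

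Keratins and their partners moved both ways. KRT8, a keratin of simple epithelia (chromosome 12, 52897187 to 52949955, minus strand), was at 334, 408 and 367 CPM in EV and 113, 104 and 104 CPM in WT (-1.79, SE 0.101, edgeR adjusted p 6.7e-10). KRT17, a keratin of wounded skin, was at 116, 119 and 117 CPM in EV and 27.3, 23.3 and 25 CPM in WT (-2.22). In both the WT libraries lay far below the EV libraries, and the desmosomal PKP3 fell by 0.83. The hair keratin KRT34 rose by 1.40, desmoplakin, DSP, by 1.41, and KRTAP2-3, a hair keratin-associated gene with near-identical neighbours, by 1.49. The keratin and desmosome list, which does not hold KRTAP2-3, had 25 tested genes. Untreated 5 were called higher and 3 lower, and under the drug 5 higher and 5 lower. CDH1, E-cadherin, of the epithelial markers, was at 4.99, 5.18 and 4.88 CPM in EV and 1.62, 0.865 and 2.08 CPM in WT (-1.71), and the part of these markers in the keratin result was not tested.

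Secreted angiogenic factors gave 8 higher and 1 lower of 21. Besides ESM1 and PDGFB, FGF5 was at 10.4, 17 and 12.6 CPM in EV and 31.3, 37.1 and 33.7 CPM in WT (1.36, SE 0.142, edgeR adjusted p 2.1e-06), and HBEGF, a ligand of the EGF receptor, rose by 0.54. ANGPTL2 was the member called lower (-1.51), and VEGFA had 0.17 and was not called. Untreated, 9 of the 21 factors were called higher and 2 lower. Genes of NF-kB and cytokine signalling gave 3 higher and 5 lower of 25 under cytarabine, beside 7.41% and 9.12% of all tested genes. With ICAM1 the lower ones included TNFAIP2 (-0.56), IL32 (-0.53) and IL11 (-0.46), and TRAF1 was higher (0.58). The list of MHC class I antigen presentation gave 2 higher and 3 lower of 17, with a median of 0.05. The immunoproteasome subunit PSMB9 (-0.56) was among the lower ones.

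The untreated libraries are not part of the treated contrast, though they share its estimate of the spread. Untreated WT differed from untreated EV in 2125 genes (11.7%), 783 higher (4.30%) and 1342 lower (7.36%). In both states 1282 genes were called in the same direction, 42.5% of the treated calls and 60.3% of the untreated ones, and 11 in opposite directions. Of the 598 genes with a treated difference of at least 1, 309 were called the same way untreated. The untreated count was 1385 to 1411 without untreated EV replicate 2 or 3 or untreated WT replicate 2 or 3, and 5101 where the fit was restricted to those groups. The biological coefficient of variation was 0.0398 in untreated EV and in untreated WT, and 0.216 in untreated mutant cells, which shared the main fit. Treated and untreated counts, here and for the lists, are therefore not to be compared in size.

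**Figure D3:**
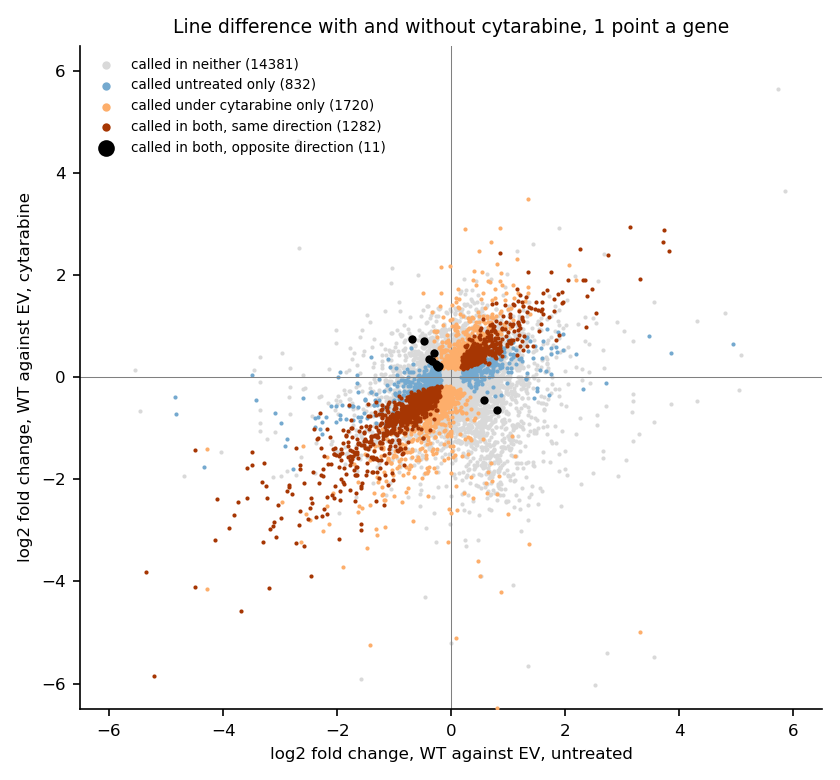
Log2 fold change of WT against EV under cytarabine (vertical axis) against that without the drug (horizontal axis), 1 point a gene, coloured by where it was called; 7 genes lie outside the plotted range. The 1282 genes called alike in both run along the diagonal, and the 1720 called under the drug only have their own colour. That colour is no sign that the lines were alike without the drug.

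A call in 1 state and not in the other is no sign that the states differ, so the change itself was tested. Of the 1720 genes called only under the drug 18 passed that test. In all, 52 genes passed (0.285%), 26 with a higher and 26 with a lower value under the drug (0.143% each), and 1815 (9.96%) had an unadjusted p under 0.05. The count was 12 (without treated WT replicate 2) to 25 in each fit that left out 1 EV or WT library other than treated EV replicate 2, and 278 where the fit was restricted to the 4 groups. With the authors' scaling factors it was 32, with 22 higher and 10 lower.

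GDF15, CHAC1 and CD82 of the stress programs were among the 52. GDF15 was lower in untreated WT, at 23.1, 26.9 and 23.8 CPM against 33.9, 32.7 and 36.2 in EV, and higher in treated WT, a change of 1.19 (SE 0.184, edgeR adjusted p 0.00538). CHAC1 went from -0.27 untreated to 0.89 treated, and CD82, a tetraspanin, from -0.29 to 0.47, changes of 1.17 and 0.76. For GDF15 and CD82 the lines were called in opposite directions with and without the drug. SEMA3B, a secreted axon guidance factor, was at 6.02, 6.08 and 5.6 CPM in untreated EV and 6.28, 5.5 and 5.94 in untreated WT, and at 26.6, 19.1 and 23 CPM in treated EV and 10.4, 11.1 and 11 in treated WT, a change of -1.09. H1F0 (-0.67), COL11A1 (-0.65) and DLGAP5 (-0.39) were also lower relative to EV under the drug.

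By size the leading changes were 1.99 for C1S, a complement protease, 1.58 for ESM1, 1.44 for AP001972.5 and 1.25 for TRIML2, and -1.47 for CCDC144NL, -1.36 for SEMA3A, -1.21 for PLAC1 and -1.17 for AC129926.2. C1S stood at 19.6, 13.4 and 17.5 CPM in treated EV and 15.3, 19.7 and 15.9 CPM in treated WT, so the treated groups overlapped, while untreated WT was lower (-1.98). In SEMA3A the treated groups overlapped too (-0.04), but untreated WT was higher (1.31), and in PLAC1 the treated value of -0.34 was not called. CCDC144NL instead differed under the drug, with 0.02 untreated and -1.45 treated, and antisense genes overlap it. C1S, AP001972.5, CCDC144NL, SEMA3A, GDF15, CHAC1 and CD82 passed in all 20 alternatives. The others were each lost in some fits without 1 library. Some were also lost with all libraries in the fit. TRIML2, AC129926.2 and DLGAP5 were lost with the replicate number as a block, PLAC1, AC129926.2 and DLGAP5 with RLE factors, and these 3 and COL11A1 with the authors' factors and with no count filter. AC129926.2 was lost with upper-quartile factors too. With 1 library left out the values ran as follows: ESM1 1.44 to 1.69, TRIML2 1.11 to 1.48, PLAC1 -1.34 to -1.12, AC129926.2 -1.30 to -1.01, SEMA3B -1.20 to -0.97, H1F0 -0.76 to -0.57, COL11A1 -0.72 to -0.58 and DLGAP5 -0.42 to -0.37.

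**Figure D4:**
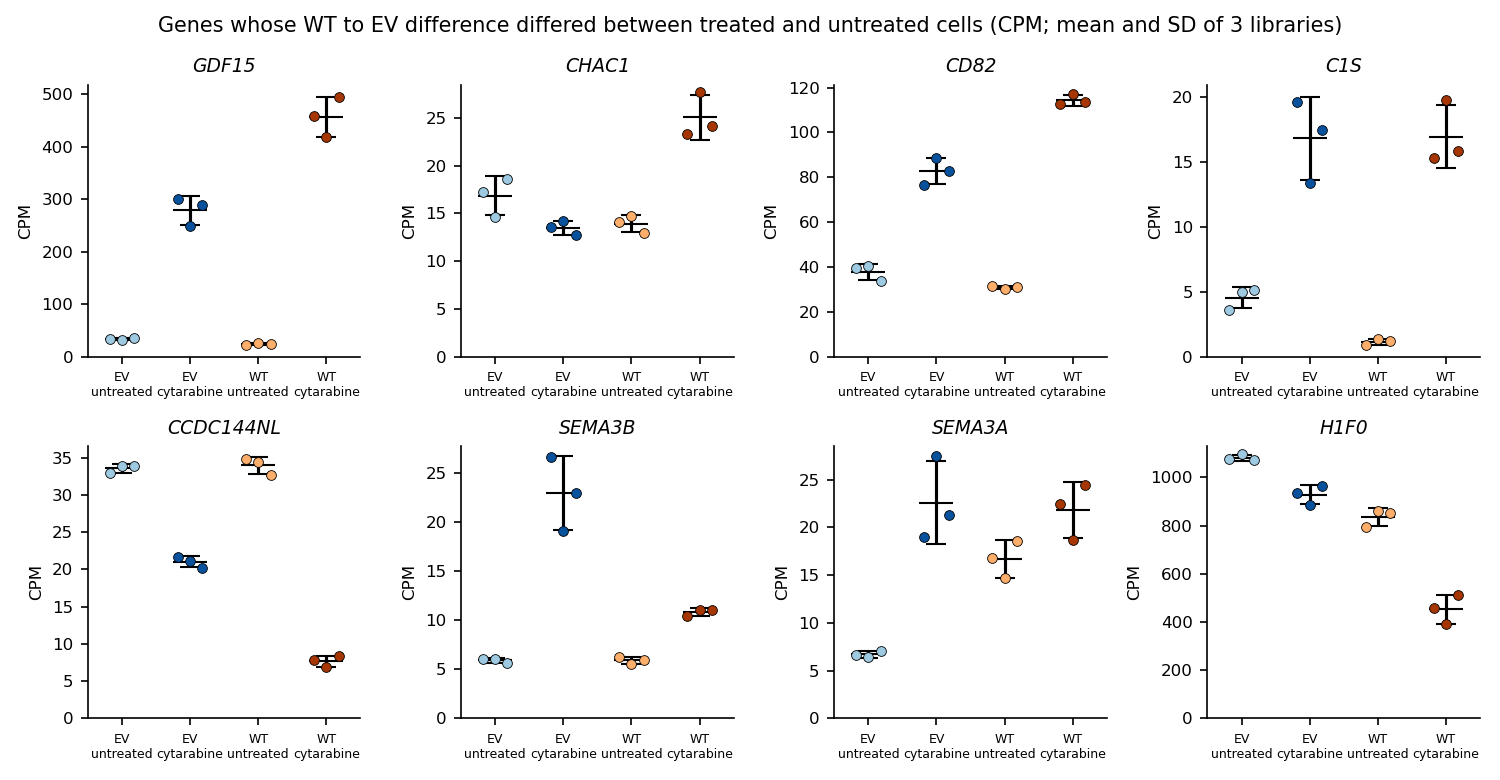
Level in CPM (vertical axes from 0) in every EV and WT library for 8 genes whose difference between the lines changed with treatment; points are libraries, the bar and whiskers the mean and SD of 3. In GDF15, CHAC1 and CD82 the treated WT libraries lie above treated EV, and in CCDC144NL, SEMA3B and H1F0 below; in C1S and SEMA3A the treated groups overlap.

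The mutant line shares the treated EV libraries as its control, so its values are given side by side only. Against EV it had 2548 called genes under the drug (14.0%), with 6.85% of the tested genes higher and 7.13% lower. For several leading genes it was near EV: PALM3 had 0.11, NES -0.06, COL1A1 0.17, KRT8 0.14, KRT17 -0.05 and CTGF 0.02, none of them called. For others it lay on the side of WT, with -3.35 for MAMDC2, -2.89 for BGN, -2.81 for the neuronal splicing factor RBFOX3 (-1.94 in WT) and -4.71 for the germline factor CTCFL (-2.0 in WT). ESM1 was -0.82 and HIST1H2AG -0.75 in the mutant line, opposite in sign to WT.

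Differences were also grouped by position, in the coordinates of the deposited table. Of 278 windows of 10 Mb with at least 20 tested genes, 8 had a median log2 fold change below -0.25 and 2 above 0.25, and the quartiles were -0.06 and 0.07. Of the 8, 5 form the end of the long arm of chromosome 7 from 110 Mb on, and 1 is X from 10 to 20 Mb. The other 2 are chromosome 16 from 70 to 80 Mb, with a median of -0.265 and 21 of 71 genes called lower (-0.566 in the mutant line against the same EV libraries), and chromosome 2 from 80 to 90 Mb, with -0.259 and 16 of 52. On chromosome 7 from 110 Mb on, 82 of 247 tested genes were called lower and 4 higher, with a median of -0.345 (-0.296 untreated), while the rest of the chromosome had 79 higher and 52 lower of 637 and a median of 0.05. The mean log2 CPM of these 247 genes, less that of all tested genes, was -0.605 to -0.582 in treated EV, -0.878 to -0.818 in treated WT and -0.853 to -0.832 in treated mutant cells. EV thus stood apart from both other lines there.

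On the X chromosome the window from 20 to 30 Mb had a median of -0.239, which does not pass that limit, and is described together with its neighbour. Over all of X, 112 of 660 tested genes were called lower and 26 higher, with a median of -0.137 (-0.087 untreated). Other X windows came near that of 20 to 30 Mb, at -0.231 (80 to 90 Mb), -0.216 (60 to 70), -0.207 (50 to 60), -0.206 (70 to 80) and -0.201 (110 to 120). Those of 140 to 150 Mb (0.172) and 150 to 160 Mb (0.128) were above 0. Lower values were thus not particular to 10 to 30 Mb. From 10 to 30 Mb, 28 of 75 genes were called lower and 1 higher, with a median of -0.345 (-0.328 untreated). The same mean was -0.394 to -0.300 in treated EV, -0.598 to -0.583 in treated WT and -0.393 to -0.368 in treated mutant cells, so WT stood apart there. RBBP7, a histone-binding subunit of Polycomb complexes, lies in this stretch and was at 139.9, 124 and 139 CPM in EV and 103, 100.1 and 106 CPM in WT (-0.38). The windows were picked for their values, so no test is given, and DNA copy number was not measured here. The 2 windows above 0.25 are the first 20 Mb of chromosome 6, with 28 of 99 genes called higher and 2 lower.

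**Figure D5:**
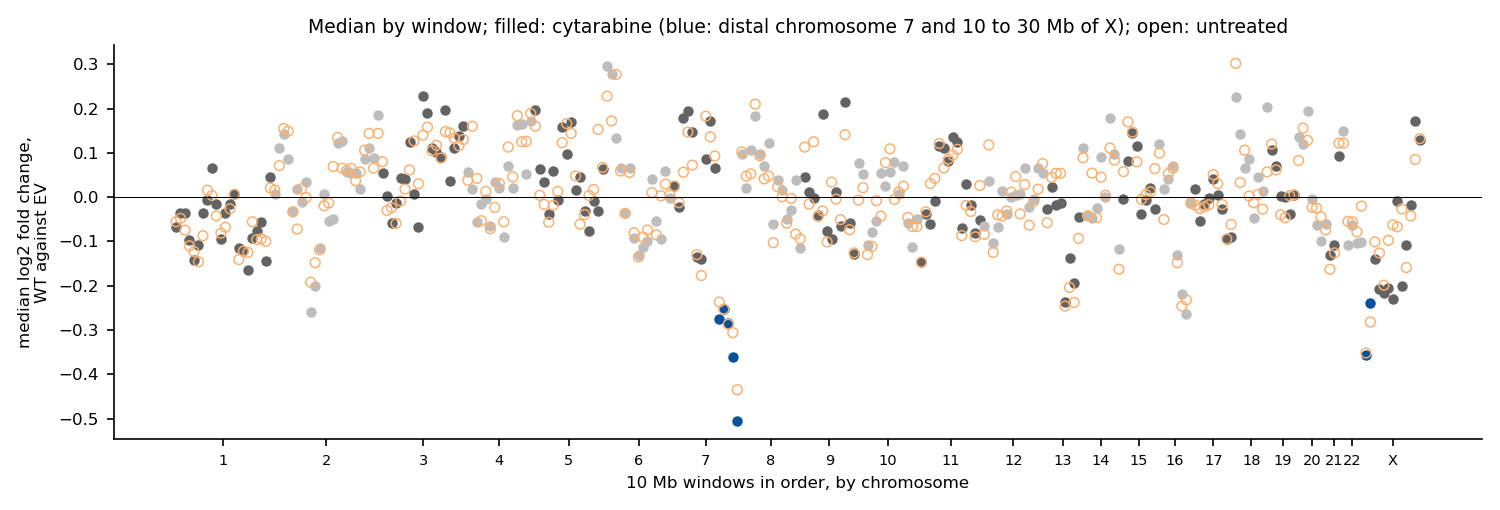
Median log2 fold change of WT against EV (vertical axis) in 10 Mb windows with at least 20 tested genes, in order along each chromosome (horizontal axis); filled points are treated and open points untreated cells. The blue windows at the end of chromosome 7 and at 10 to 30 Mb of X lie below most others in both states.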

How the data were processed

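Total RNA of U2OS cells was sequenced in 18 libraries, 3 in each of 6 groups taken from the sample titles. Per the submitters' processing notes the tools included CASAVA and STAR 2.6.1d and the build hg38, with no roles stated; the counting tool and its handling of strand are not given in the sources used here. The authors deposited estimated counts per gene symbol (25296 genes), not normalized and 70.4% of them whole. A second table of the authors holds a normalized signal, from which only their scaling factors were taken. Estimated counts were rounded, and edgeR 4.0.16 was run under R 4.3.3. The filter filterByExpr left 18226 genes, libraries were scaled by TMM, and 1 quasi-likelihood fit had a coefficient for each group, with a Benjamini-Hochberg threshold of 0.05. SE was derived from the test's F statistic. CPM are counts scaled to 1000000 of the TMM-scaled library, and intervals of counting error are not given. DESeq2 1.42.0 was an alternative. The code was tested on simulated data.

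Genes were named by rule: the DNA methylation list, the 12 largest rises and 12 largest falls without overlap and above a mean log2 CPM of 1, the 5 most abundant genes a direction with a log2 fold change of at least 1, up to 5 called and 2 uncalled genes a list, the 4 largest changes of the difference a direction, and 16 genes chosen by name. The text uses those of them it describes, and some are not reported here. The genes, lists and comparison were chosen with earlier results of these data known. Lists are described by counts and medians, with no set test. Windows were singled out after their values were seen.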

Additional observations from a re-analysis of the deposited data

Results flagged for a closer look

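For 15 named genes the difference between WT and EV itself differed between treated and untreated cells, by the edgeR test of that change. It was higher under the drug for C1S (1.99), ESM1 (1.58), AP001972.5 (1.44), TRIML2 (1.25), GDF15 (1.19), CHAC1 (1.17) and CD82 (0.761) on the log2 scale. It was lower for CCDC144NL (-1.47), SEMA3A (-1.36), PLAC1 (-1.21), AC129926.2 (-1.17), SEMA3B (-1.09), H1F0 (-0.665), COL11A1 (-0.654) and DLGAP5 (-0.394). Groups of 3 libraries are too small for a test of single outlying samples.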

How the results depend on the processing

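The 20 alternatives were 3 other scalings, 2 other count filters, DESeq2, a fit restricted to the groups in question, the replicate number as a block, and each of the 12 EV and WT libraries left out. Of 118 named genes called under cytarabine, 111 kept direction and call in every alternative that tested them, 7 lost the call in some, and none changed sign. The treated count of 3013 ran from 1776 to 2810 with 1 library left out, and the untreated count of 2125 from 1385 to 2238. In these restricted fits the untreated count was 5101 and the count of changed differences 278 against 52; these fits took the spread from fewer groups and tested fewer genes. That last count was also 137 in DESeq2, 34 with no count filter, 32 with the authors' factors and 12 to 53 with 1 library left out, and the cause of these shifts was not tested. Near-zero treated values changed sign: C1S was -0.020 with upper-quartile factors, -0.018 under a filter at a mean count of 50, -0.0021 with the authors' factors, -0.0084 in the restricted fit and -0.13 to 0.13 with 1 library left out, SEMA3A was -0.15 to 0.12 with 1 library left out, and PARP1 was 0.0017 with no count filter and -0.042 to 0.011 with 1 library left out. With the replicate block 2984 genes were called under cytarabine. Same-numbered treated EV and WT libraries had deviations correlated at -0.189, 0.222 and -0.234, so the numbers were not taken as pairs. Depth limits BGN, with 3 to 11 counts in each treated WT library.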

Other observations

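Apoptosis regulators of the BCL2 family had 5 members higher and 2 lower of 17 tested in treated WT against treated EV. The shares over all tested genes were 7.41% and 9.12%. BCL2L1, the source of the anti-apoptotic BCL-XL, was at 302, 311 and 308 CPM in EV and 438, 443 and 425 CPM in WT (0.50, SE 0.0571, edgeR adjusted p 5.4e-06), and BCL2A1, a related protector, rose from below 1 CPM by 2.07. The pro-apoptotic BIK (-1.72) and BMF (-1.11) were lower, each without overlap of the groups. Pro-apoptotic members did not all fall. BID held 451, 374 and 585 counts in treated EV and 689, 616 and 580 counts in treated WT, not scaled to library size. Relative to the library totals, BID was higher in every treated WT library than in every treated EV library. The higher count was 3 without EV replicate 1, WT replicate 1 or WT replicate 3 and 2 without WT replicate 2. Untreated, 2 of the 17 were called higher and 1 lower.

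Germline genes, whose promoters are methylated in most somatic cells, moved both ways, with 4 higher and 5 lower of 30 tested out of 56 listed. CTCFL, the germline paralog of CTCF, was at 13.9, 15.6 and 14.4 CPM in EV and 3.29, 3.35 and 4.3 CPM in WT (-2.0). MAGEA10 (-0.61), PRAME (-0.35) and TUBA3C (-0.33) were lower, and CTAG2 was higher (0.60). Without EV replicate 1 the higher count was 1 and without WT replicate 1 it was 2. HOX genes were mixed within a cluster: HOXA7 fell by 1.40 and HOXA3 rose by 0.96, HOXB9 rose by 0.34 and HOXC11 fell by 0.65, with 5 higher and 4 lower of 33. That count was 3 higher without EV replicate 3 or WT replicate 1 or 2, and 2 lower without EV replicate 2 or 3 or any 1 WT replicate. HOXA transcripts overlap each other and antisense genes, and the handling of strand in counting is not given in the sources used here. Class 3 semaphorins also differed, with SEMA3G (-0.91) and SEMA3F (-0.70) lower beside SEMA3B and SEMA3C higher (0.45). The semaphorin, plexin and neuropilin list gave 5 higher and 7 lower of 29, with 4 lower without WT replicate 2 and 3 higher without EV replicate 2 or 3 or WT replicate 1 or 2. Over all tested genes 7.41% were called higher and 9.12% lower. With so few genes the germline, HOX and semaphorin counts are no result about those lists.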
